A study of Homo sapiens with 9 samples.

Results

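The NF-kB pathway was followed through 44 genes in Z138, an established B cell line from mantle cell lymphoma, by RNA-seq of 9 libraries. The members were taken by symbol from a list of subunits, inhibitors, kinases, TRAF proteins and feedback targets, and 44 of the 44 symbols were among the 16586 genes of the table. Libraries of 3 groups, with 3 in each, were compared: the rescue, which is SOX11 knockout Z138 given SOX11 back (genotype SOX11KO+SOX11Rescue), the knockout (SOX11KO), and wild type (WT). The rescue cells thus carry the knockout too. The labels name no stimulus, give no construct or guide, and do not say whether the edited lines are single clones or whether replicates were separate cultures, so p-values measure only the spread between these libraries. SOX11 is a neural transcription factor that most mantle cell lymphomas express.

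NF-kB is a family of dimeric transcription factors that wait in the cytoplasm bound to inhibitors of the IkB family. In the canonical arm, receptors such as Toll-like receptors or the B cell receptor activate the IkB kinase complex, IkB is degraded and dimers holding RELA or REL enter the nucleus. In the non-canonical arm, the kinase NIK (MAP3K14), held low by TRAF3 and the cIAP proteins, leads to processing of NFKB2 and release of RELB. Many of the genes that NF-kB switches on encode its own brakes, such as NFKBIA and TNFAIP3, and NF-kB is a known survival signal in mantle cell lymphoma.

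Facts that hold for the whole table were as follows. Estimated depth was 3.07e+07 to 4.07e+07 reads per library, and libraries of 1 group correlated at 0.992 to 0.997 across tested genes. Libraries of different groups correlated at 0.982 to 0.994, so the 2 ranges overlapped. SOX11, the targeted gene, had 13130 ± 627 normalized counts in the rescue, 1033 ± 262 in the knockout and 3549 ± 474 in wild type (mean ± SD, n = 3), so the knockout held 29.1% of the wild-type level. B cell markers were detected in each library, at a range of levels. CD79A was at 225 to 236 CPM (normalized counts scaled to a fixed total per library) in the rescue, 238 to 251 CPM in the knockout and 242 to 273 CPM in wild type. CD22 lay between 6.36 and 16.5 CPM and CD37 between 6.29 and 16 CPM over the 9 libraries. CD37 and PAX5 were called higher in the rescue than in the knockout (limma adjusted p = 0.00455 and 0.0231). CCND1, a mantle cell marker, was called lower in the rescue than in wild type (0.838 times, limma adjusted p = 0.0411). Markers of other cell types were mixed: CD3D lay between 0.0175 and 0.136 CPM and CD14 between 0 and 0.101 CPM over the 9 libraries, but CD247 lay between 18.8 and 25.7 CPM and COL1A1 between 20.2 and 36.5 CPM. CD4 averaged 362.5 ± 28.9 normalized counts in the rescue, 845.7 ± 37.5 in the knockout and 179.4 ± 6.03 in wild type (knockout against wild type limma adjusted p = 5.15e-07). The 13 T and NK cell markers in the table summed to 58.7 to 64.2 CPM in the rescue, 71.9 to 78.9 CPM in the knockout and 39.2 to 46.6 CPM in wild type. Single markers did not all follow this sum. Of 9 tested, IL7R and TRAC were called higher in the rescue than in the knockout, where they averaged 8.945 and 4.269 normalized counts, and CD4 was called lower. PRF1 averaged 422.1 ± 51.1 in the rescue, 313.8 ± 69.8 in the knockout and 95.81 ± 21.5 in wild type. The part of markers of other cell types in the results on NF-kB genes was not tested. Myeloid markers (6 of 10 in the table) summed to 3.08 to 4.1 CPM in the rescue, 3.67 to 4.89 CPM in the knockout and 2.29 to 2.42 CPM in wild type, and fibroblast, epithelial and endothelial markers (7 of 11) to 27.5 to 32.5 CPM in the rescue, 41.1 to 49.7 CPM in the knockout and 35.8 to 45.2 CPM in wild type.

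Promoters of the members set the scene, since many NF-kB genes are themselves NF-kB targets. The kB consensus, the degenerate letter pattern that NF-kB dimers bind, was searched on both strands in RefSeq promoter windows (GRCh38.p14, 250 bases before to 50 after each start), where overlapping matches can be counted more than once. It was present in a window of 16 of the 40 members whose windows were used (40%), against 7.09% of all 27305 symbols. Members had more windows than other genes, and counted by window the shares were 27.8% of 72 member windows against 5.91% of all 35116 windows. The letters AACAAT, a core that SOX proteins bind, were in a window of 1 member, TRAF5, or 2.5% against 12.19% of symbols. The list holds feedback targets of NF-kB by choice, and the symbols include genes outside the 16586 of the table. The backgrounds are therefore unlike the members, and no conclusion is drawn from these shares. A match is a description of letters, not a measured binding site. The 250 bases before the start are printed here for members that the results turn on, with the kB consensus in capitals: REL (chr2:60881324-60881573, plus strand), TNFAIP3 (chr6:137867009-137867258, plus strand), CD83 (chr6:14117522-14117771, plus strand, the second of its windows), BIRC3 (chr11:102317234-102317483, plus strand), NFKBIA (chr14:35404750-35404999, minus strand), and MYD88 (chr3:38138411-38138660, plus strand), in whose window no match was found.
REL: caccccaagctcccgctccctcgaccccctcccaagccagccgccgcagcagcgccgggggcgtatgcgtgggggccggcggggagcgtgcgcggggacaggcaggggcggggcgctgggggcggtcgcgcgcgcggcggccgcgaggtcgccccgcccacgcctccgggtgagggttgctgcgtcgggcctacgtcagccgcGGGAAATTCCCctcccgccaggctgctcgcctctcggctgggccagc
TNFAIP3: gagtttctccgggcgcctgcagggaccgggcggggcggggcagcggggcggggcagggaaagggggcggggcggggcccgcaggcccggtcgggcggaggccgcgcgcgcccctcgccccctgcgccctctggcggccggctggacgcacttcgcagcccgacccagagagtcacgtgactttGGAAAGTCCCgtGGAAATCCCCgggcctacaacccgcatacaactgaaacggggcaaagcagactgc
CD83: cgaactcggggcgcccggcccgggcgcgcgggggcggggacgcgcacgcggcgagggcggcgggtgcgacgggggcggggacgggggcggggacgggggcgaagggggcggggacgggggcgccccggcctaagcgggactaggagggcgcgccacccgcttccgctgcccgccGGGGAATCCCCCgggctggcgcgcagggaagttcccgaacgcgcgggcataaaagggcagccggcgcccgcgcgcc
BIRC3: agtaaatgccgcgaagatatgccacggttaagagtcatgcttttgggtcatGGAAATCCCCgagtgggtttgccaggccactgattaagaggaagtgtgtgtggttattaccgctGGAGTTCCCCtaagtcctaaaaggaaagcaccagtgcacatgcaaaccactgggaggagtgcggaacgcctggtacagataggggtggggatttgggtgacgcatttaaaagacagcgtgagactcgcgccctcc
NFKBIA: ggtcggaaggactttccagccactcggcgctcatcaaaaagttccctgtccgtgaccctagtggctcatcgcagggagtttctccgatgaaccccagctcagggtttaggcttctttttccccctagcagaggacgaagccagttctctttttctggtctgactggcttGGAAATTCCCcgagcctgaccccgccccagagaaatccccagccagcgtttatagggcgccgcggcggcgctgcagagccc
MYD88: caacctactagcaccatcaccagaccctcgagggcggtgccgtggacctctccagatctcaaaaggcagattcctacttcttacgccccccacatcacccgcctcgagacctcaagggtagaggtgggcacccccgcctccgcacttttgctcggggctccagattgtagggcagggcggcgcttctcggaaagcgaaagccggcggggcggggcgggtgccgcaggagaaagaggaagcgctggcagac

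In these windows the kB letters began 47 bases before the start of REL, 67 and 55 bases before that of TNFAIP3, 76 before that of CD83, 199 and 135 before that of BIRC3 and 81 before that of NFKBIA. The windows of IRAK1 and TRAF3IP3, which were also called, held no match. The first CD83 window (chr6:14117006-14117305) held no match either, so its letters are those of the second window alone. REL, TNFAIP3 and CD83, with these letters, and MYD88, without them, were all higher in the rescue than in the knockout. NFKBIA was not called there, and BIRC3 was called lower only with the replicate block described later. Of the 16 members with a match in a window, only REL, TNFAIP3 and CD83 were called in any comparison without that block. Others with a match, such as NFKB1, NFKBIB, TNIP1 and CFLAR, were not called. The printed members were picked with the calls known, so no link between letters and direction is read from them.

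Of the 44 members, 41 passed a filter of 1 CPM in at least 3 libraries and were tested with limma on the deposited log2 values together with all other genes that passed. A gene is called at a Benjamini-Hochberg adjusted p under 0.05 over those genes, and log2 differences are on the deposited variance-stabilized scale, which understates the change of low genes. Between the rescue and the knockout 6 members were called, 4 higher and 2 lower (14.6%), against 22.1% of all genes. Between the knockout and wild type 3 were called, 1 higher and 2 lower (7.32%), against 12.7% of all genes. Between the rescue and wild type 3 were called, 2 higher and 1 lower (7.32%), against 4.07% of all genes. In direction, the backgrounds were 11.5% higher and 10.7% lower for the rescue against the knockout, 5.36% higher and 7.37% lower for the knockout against wild type, and 2.30% higher and 1.78% lower for the rescue against wild type. The members' shares lay near or below these backgrounds in the first 2 comparisons. The third rests on 3 genes.

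**Figure D1:**
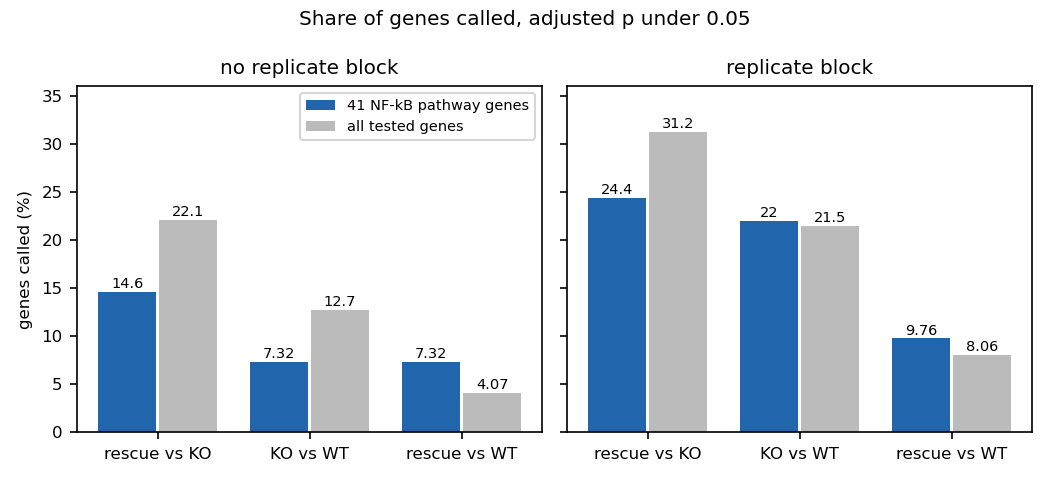
Share of genes called (percent, adjusted p under 0.05) among the 41 tested NF-kB pathway genes and among all tested genes, for 3 comparisons, without the replicate block (left) and with it (right). The blue bars for the rescue against the knockout stand at 14.6% and 24.4%, below the grey bars at 22.1% and 31.2%.

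The called members were REL, TRAF3IP3, MYD88, IRAK1, TLR7, TNFAIP3 and CD83. These 7 are 17.1% of the tested members, beside 25.4% of all genes called in at least 1 comparison, and 34 tested members were called in none. The median difference over the 41 members was -0.02 for the rescue against the knockout, 0.03 for the knockout against wild type and 0.01 for the rescue against wild type, beside medians of -0.01, 0.00 and 0.00 over all genes. The median size of the difference, sign aside, was 0.06 in the rescue against the knockout, where it was 0.10 over all genes, 0.08 in the knockout against wild type, where it was also 0.08, and 0.07 in the rescue against wild type, where it was 0.06. Of the 41 tested members only TRAF3IP3 reached a 2-fold ratio of mean normalized counts in any comparison.

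The labels give a batch equal to the replicate number, and each batch holds 1 library of each group. With the batch as a block more members were called: 10 between the rescue and the knockout (6 higher, 4 lower; 24.4%, with 31.2% of all genes), 9 between the knockout and wild type (4 higher, 5 lower; 22.0%, with 21.5% of all genes) and 4 between the rescue and wild type (2 higher, 2 lower; 9.76%, with 8.06% of all genes). In direction, the backgrounds with the block were 15.6% higher and 15.6% lower for the rescue against the knockout, 10.2% higher (1172 genes) and 1309 genes lower for the knockout against wild type, and 4.27% higher and 3.79% lower for the rescue against wild type. With it, 13 members (31.7%) were called in at least 1 comparison, beside 37.0% of all genes. The 6 members called only with the block were NFKB2, NFKBID, TRAF3, BIRC2, BIRC3 and ICAM1.

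**Figure D2:**
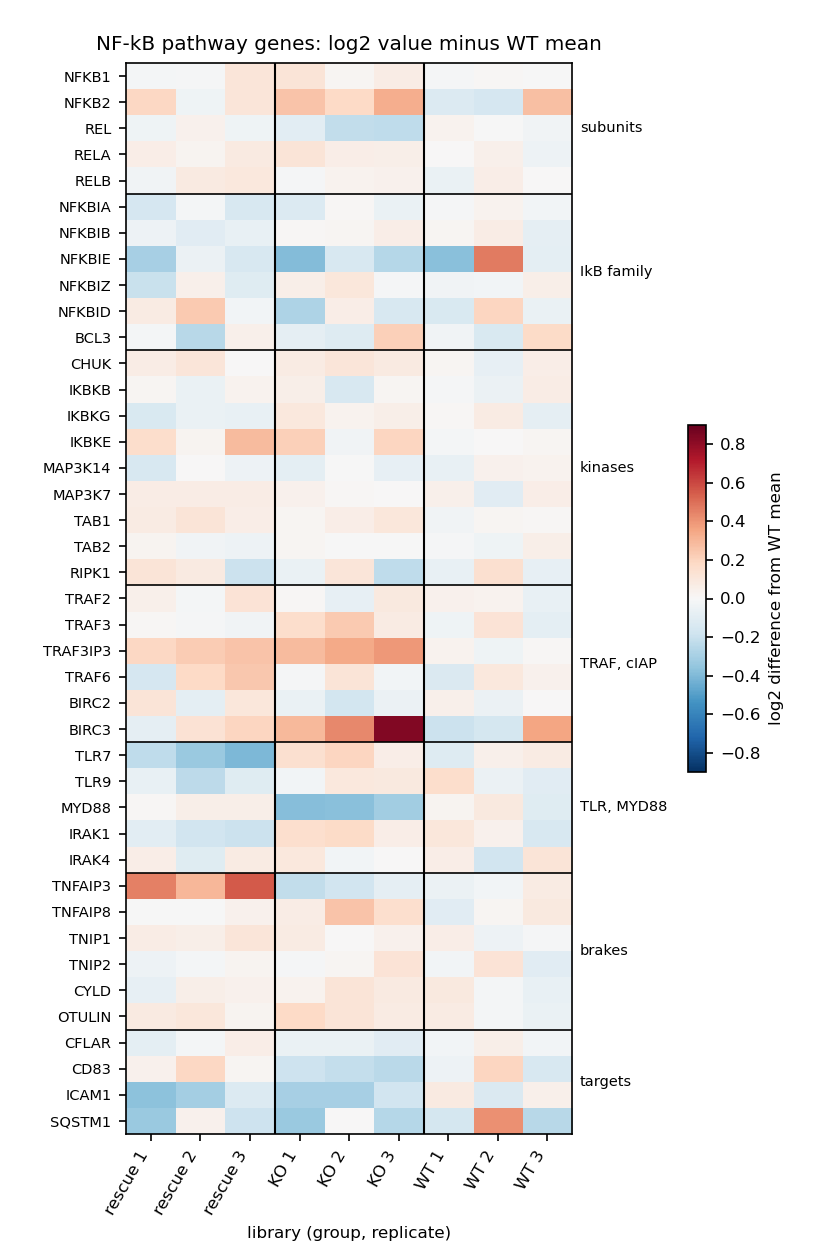
Deposited log2 value of each of the 41 tested members in each library minus the wild-type mean of that gene, with rows grouped by role and columns by group (rescue, KO, WT). TNFAIP3 stands out as high in the 3 rescue libraries, MYD88 as low and TRAF3IP3 and BIRC3 as high in the 3 KO libraries, while most rows are near 0. For BIRC3, WT replicate 3 is high too, above KO replicate 1.

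The 5 DNA-binding subunits came first. REL, the c-Rel subunit typical of B cells, had 1853, 1994 and 1852 normalized counts in the rescue, 1757, 1553 and 1549 in the knockout and 1988, 1916 and 1872 in wild type. The knockout libraries lay below all others, while the rescue and wild type overlapped. REL was 1.17 times as high in the rescue as in the knockout (log2 difference 0.17, SE 0.054, limma adjusted p = 0.0455) and 0.841 times as high in the knockout as in wild type (-0.18, adjusted p = 0.0476). These calls are marginal. The first was lost without any 1 of 7 of the 9 libraries (KO replicates 2 and 3, rescue replicates 1, 2 and 3, WT replicates 1 and 3; adjusted p up to 0.153) and the second without any 1 of 8 (all but KO replicate 1; up to 0.151), and both without any 1 batch (up to 0.244 and 0.24) without the filter (0.0597 and 0.0619), with median centring (0.0632 and 0.0519) and with only the 2 groups compared (0.0521 and 0.0895). An annotated transcript, AC010733.2, overlaps REL exons on the same strand.

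None of the other 4 subunits was called, beside 25.4% of all genes called in at least 1 comparison. NFKB1, which encodes p105 and p50, had 3708, 3725 and 4096 normalized counts in the rescue, 4127, 3809 and 3961 in the knockout and 3722, 3790 and 3751 in wild type. RELA, the p65 subunit of the canonical dimer, had 3279, 3172 and 3342 in the rescue, 3427, 3265 and 3251 in the knockout and 3128, 3230 and 2987 in wild type. For both genes the 3 knockout libraries were above the 3 wild-type libraries, but by small amounts (log2 differences 0.07 and 0.07, adjusted p = 0.456 and 0.364). RELB, the partner of p52 in the non-canonical arm, had 3342, 3672 and 3717 in the rescue, 3403, 3527 and 3551 in the knockout and 3267, 3616 and 3449 in wild type, with the 3 groups overlapping and all differences between 0.02 and 0.05. The 95% intervals of RELA were -0.12 to 0.09 for the rescue minus the knockout and -0.03 to 0.18 for the knockout minus wild type.

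NFKB2, the precursor of p52, had 7275, 6103 and 6827 normalized counts in the rescue, 7645, 7227 and 8075 in the knockout and 5732, 5587 and 7756 in wild type. Wild-type replicate 3 lay among the knockout libraries, and the other 2 wild-type libraries were the lowest of the 9. The knockout was 1.20 times wild type (log2 difference 0.25, SE 0.103, adjusted p = 0.139), higher within 3 of the 3 batches but by only 0.05 in batch 3. With the block the call was made (adjusted p = 0.0338), as it was without WT replicate 3 (log2 difference 0.39, adjusted p = 0.00708).

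The IkB family comprises the classical inhibitors NFKBIA, NFKBIB and NFKBIE and the nuclear members NFKBIZ, NFKBID and BCL3, which act on NF-kB at its target genes. None of the 6 was called in any comparison, beside 25.4% of all genes called in at least 1, and so few genes do not show a difference from that share. Differences were -0.14 to 0.22 for the rescue minus the knockout, -0.26 to 0.05 for the knockout minus wild type and -0.17 to 0.10 for the rescue minus wild type. NFKBIA, which encodes IkB-alpha and is a standard readout of NF-kB activity, had 4973, 5546 and 5002 normalized counts in the rescue, 5078, 5644 and 5348 in the knockout and 5569, 5756 and 5502 in wild type. Its groups overlapped, with 95% intervals of -0.17 to 0.08 for the rescue minus the knockout and -0.18 to 0.06 for the knockout minus wild type. NFKBIB stayed between 741.5 and 907.1, and its exons overlap SIRT2 on the other strand.

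NFKBID, IkB-NS, had 327.2, 421.0 and 274.7 normalized counts in the rescue, 166.6, 319.0 and 219.6 in the knockout and 224.5, 393.4 and 259.8 in wild type. Within each batch the rescue was the highest of the 3 groups and the knockout the lowest, but batch 2 was high throughout. The rescue was 1.45 times the knockout (log2 difference 0.22, SE 0.104, adjusted p = 0.168), and this was called with the block (adjusted p = 0.0124) and without batch 2 (0.0493).

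The kinase module holds the IkB kinase subunits CHUK, IKBKB and IKBKG, the related kinase IKBKE, NIK (MAP3K14), the kinase TAK1 (MAP3K7) with its adaptors TAB1 and TAB2, and RIPK1, the kinase that serves as a scaffold at the TNF receptor. None of these 9 was called in any comparison, beside 25.4% of all genes called in at least 1. So few genes do not show that the module differs from that share. Differences ran from -0.15 to 0.06 for the rescue minus the knockout, -0.06 to 0.13 for the knockout minus wild type and -0.09 to 0.15 for the rescue minus wild type. TAB2 had 2796, 2663 and 2621 normalized counts in the rescue, 2772, 2715 and 2729 in the knockout and 2699, 2645 and 2849 in wild type. MAP3K7 had 2871, 2868 and 2866 in the rescue, 2798, 2736 and 2715 in the knockout and 2814, 2474 and 2846 in wild type. IKBKG, the regulatory subunit NEMO, lay between 532.8 and 594.0 in the rescue, 665.8 and 725.2 in the knockout and 575.1 and 702.7 in wild type. Its rescue and knockout libraries did not overlap, yet it was not called (log2 difference -0.15, adjusted p = 0.0842, 0.0612 with the block). Groups were apart for 14 of the 41 members in that comparison, beside 41.8% of all genes. They were apart for 11 members between the knockout and wild type, beside 29.5%, and for 6 between the rescue and wild type, beside 20.8%. IKBKG shares sequence with a pseudogene copy, so its level is less certain.

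**Figure D3:**
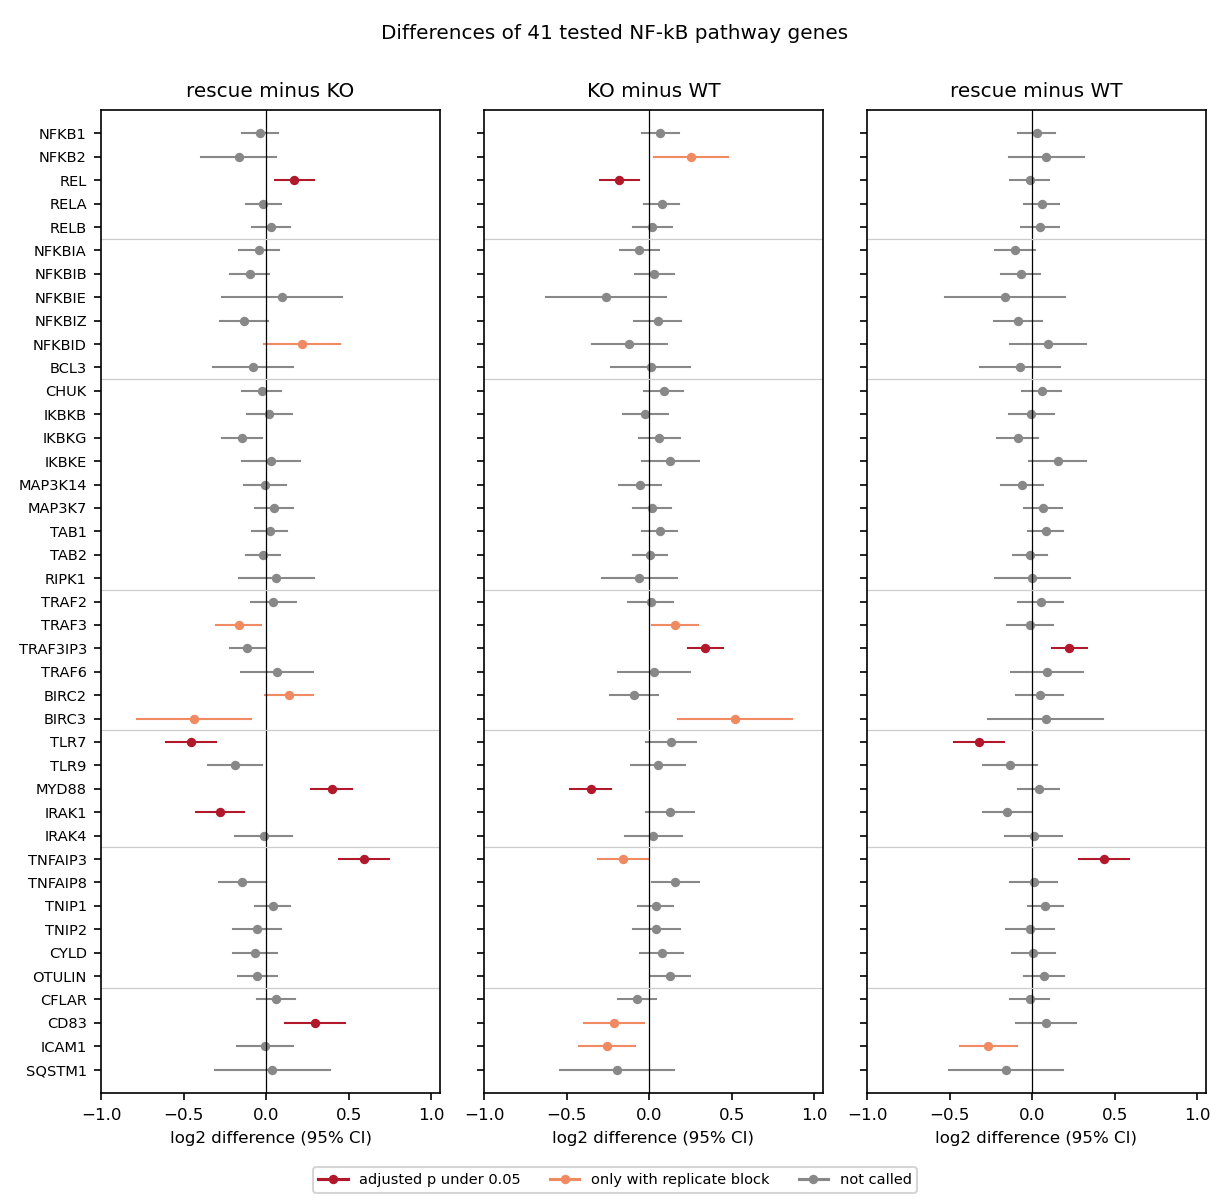
Log2 differences with 95% confidence intervals from limma for the 41 tested members in 3 comparisons, grouped by role from subunits at the top to targets at the bottom. Red points passed an adjusted p of 0.05, orange points passed it only with the replicate block, and grey points did neither. Most intervals of the kinases cross 0.

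TRAF proteins are adaptors and ubiquitin ligases under TNF family and Toll-like receptors, and BIRC2 and BIRC3 (cIAP1 and cIAP2) are ubiquitin ligases that work with TRAF2 and TRAF3. TRAF3IP3, a lymphocyte protein that binds TRAF3, had the highest ratio of the 41 tested members. It had 178.8, 194.9 and 206.5 normalized counts in the rescue, 219.7, 242.3 and 267.5 in the knockout and 124.5, 102.1 and 117.3 in wild type. No group overlapped another, and wild type was lowest. The knockout was 2.12 times wild type (log2 difference 0.34, SE 0.0487, adjusted p = 7.97e-04), a call kept in 19 of 19 alternatives, and the rescue was 1.69 times wild type (0.22, adjusted p = 0.0261). The rescue against the knockout was not called (ratio 0.795, adjusted p = 0.118). The rescue against wild type lost its call without rescue replicate 2 (adjusted p = 0.0927) or 3 (0.117), WT replicate 2 (0.0778) or 3 (0.0605), or any 1 batch (up to 0.258), and with only the 2 groups compared (0.0515). TRAF3IP3 overlaps C1orf74 on the other strand, and the labels do not say which libraries kept the strand.

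BIRC3, a target of NF-kB as well as a regulator, had 2000, 2426 and 2553 normalized counts in the rescue, 2796, 3145 and 4371 in the knockout and 1794, 1856 and 2949 in wild type. The rescue libraries were all below the knockout libraries. WT replicate 3 overlapped the knockout, and batch 3 was high in each group. BIRC3 was 0.677 times as high in the rescue as in the knockout (log2 difference -0.44, SE 0.158, adjusted p = 0.0696) and 1.56 times as high in the knockout as in wild type (0.52, adjusted p = 0.0527). Within batches 1, 2 and 3 the knockout minus wild type was 0.49, 0.59 and 0.47, and the rescue minus the knockout was -0.38, -0.30 and -0.64. With the block both were called (adjusted p = 0.00126 and 6.78e-04). Without the block the first was called without WT replicate 3 (0.0305) and with only the 2 groups compared (0.0368), and the second with median centring (0.048) and without KO replicate 1 (0.0439), WT replicate 3 (0.0103) or batch 3 (0.0182).

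TRAF3, the negative regulator of NIK, had 5162, 5079 and 4996 normalized counts in the rescue, 5798, 6184 and 5433 in the knockout and 4970, 5665 and 4791 in wild type. The rescue lay below the knockout in every batch (ratio 0.875, adjusted p = 0.0814, 0.0199 with the block) and the knockout above wild type in every batch (1.13, adjusted p = 0.14, 0.0388 with the block). Without WT replicate 2 both were called (0.0318 and 0.029), and the first also with only the 2 groups compared (0.0395). BIRC2 was called only with the block, in the rescue against the knockout (ratio 1.18, adjusted p = 0.0488 with the block and 0.167 without it). TRAF2 and TRAF6 were not called. TRAF1 and TRAF5 did not pass the filter. TRAF1, an NF-kB target in activated B cells, had 6.269 to 10.34 normalized counts in the rescue, 1.098 to 7.673 in the knockout and 4.856 to 9.607 in wild type. TRAF5 had 26.67 to 39.96 in the rescue, 7.065 to 27.50 in the knockout and 13.52 to 22.69 in wild type, and in the fit with no filter the rescue against the knockout had an adjusted p of 0.0729.

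Toll-like receptors 7 and 9 sense RNA and DNA in endosomes of B cells and signal through the adaptor MYD88 to the kinases IRAK4 and IRAK1. In this group 3 of 5 members were called between the rescue and the knockout, beside 22.1% of all genes. MYD88 had 2488, 2582 and 2583 normalized counts in the rescue, 1735, 1752 and 1856 in the knockout and 2515, 2666 and 2234 in wild type. The 3 knockout libraries were below the other 6, and the rescue and wild type overlapped. It was 1.43 times as high in the rescue as in the knockout (log2 difference 0.40, SE 0.0574, adjusted p = 5.84e-04), which was kept in 19 of 19 alternatives, and 0.721 times as high in the knockout as in wild type (-0.36, adjusted p = 0.00178), which was lost without batch 1 (adjusted p = 0.0681). Both comparisons share the knockout libraries. The rescue minus wild type was 0.04 (95% interval -0.09 to 0.16).

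TLR7 went the other way in the rescue. It had 1075, 956.4 and 883.5 normalized counts in the rescue, 1572, 1657 and 1452 in the knockout and 1208, 1426 and 1469 in wild type. The rescue libraries were the lowest of the 9, and the knockout and wild type overlapped. TLR7 was 0.623 times as high in the rescue as in the knockout (log2 difference -0.46, SE 0.0688, adjusted p = 7.44e-04; kept in 19 of 19 alternatives) and 0.710 times as high in the rescue as in wild type (-0.32, adjusted p = 0.0238). The second call was lost without rescue replicate 2 (adjusted p = 0.0855) or 3 (0.116), WT replicate 2 (0.0684) or 3 (0.0801), or batch 2 (0.136) or 3 (0.317), and with only the 2 groups compared (0.0553). The knockout against wild type was not called (1.14 times, adjusted p = 0.248).

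IRAK1 had 7694, 7229 and 7107 normalized counts in the rescue, 9239, 9378 and 8643 in the knockout and 8925, 8502 and 7389 in wild type. Rescue and knockout did not overlap, and wild type spanned the gap between them. The rescue was 0.808 times the knockout (log2 difference -0.28, SE 0.0662, adjusted p = 0.0108), a call lost without batch 1 (0.0582) or batch 2 (0.0711). TLR9 had 260.1 to 348.8 in the rescue, 373.4 to 445.8 in the knockout and 328.3 to 487.6 in wild type and was not called (rescue against knockout adjusted p = 0.0981). IRAK4 was not called either, and its 3 groups overlapped between 1787 and 2337. The receptor TLR7, the adaptor MYD88 and the kinase IRAK1 thus did not share a direction between the rescue and the knockout.

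**Figure D4:**
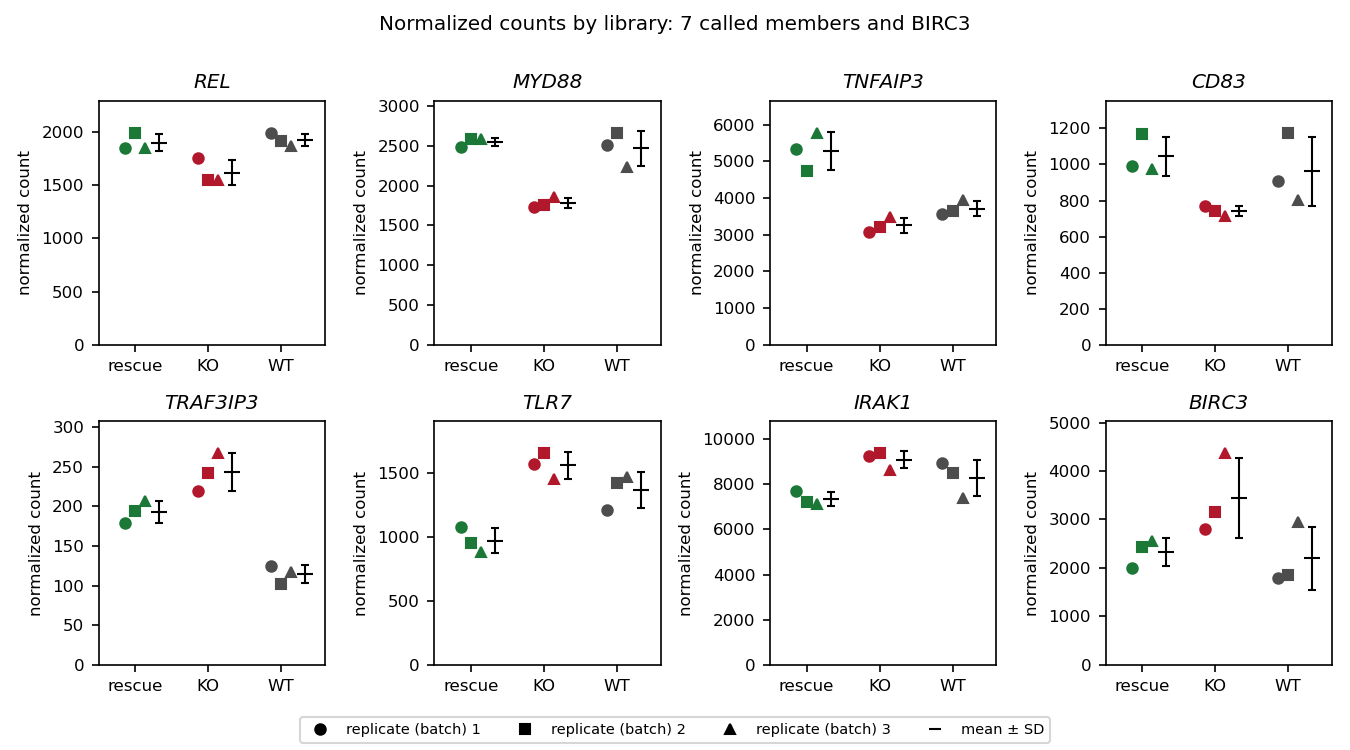
Normalized counts in each library for the 7 called members and BIRC3, by group (rescue, KO, WT), with marker shape for the replicate number, which equals the batch, and bars for mean ± SD (n = 3). REL, MYD88 and CD83 are lowest in KO, TNFAIP3 is highest and TLR7 lowest in the rescue, and TRAF3IP3 is lowest in WT.

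The brakes on the pathway and TNFAIP8, grouped with them here, made up 6 members. Beside 25.4% of all genes called in at least 1 comparison, only TNFAIP3 was called among these. It encodes A20, a ubiquitin-editing enzyme that shuts off signalling to the IkB kinases, is induced by NF-kB and is a tumour suppressor in B cell lymphomas. Its normalized counts were 5342, 4735 and 5781 in the rescue, 3083, 3207 and 3471 in the knockout and 3554, 3647 and 3943 in wild type. No group overlapped another: the rescue was highest and the knockout lowest. TNFAIP3 was 1.62 times as high in the rescue as in the knockout (log2 difference 0.59, SE 0.0689, adjusted p = 1.15e-04), the largest difference of any member in that comparison and one kept in 19 of 19 alternatives. The rescue was also 1.42 times wild type (0.44, adjusted p = 0.00459), which was lost without batch 1 (0.117) or batch 3 (0.0594). The knockout was 0.876 times wild type (-0.16, adjusted p = 0.167), lower by 0.15 to 0.17 within 3 of 3 batches and called with the block (adjusted p = 0.0397). Its annotation overlaps an antisense transcript, AL357060.1.

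The other brakes and TNFAIP8 were not called in any comparison. TNIP1 and TNIP2 encode partners of A20, CYLD and OTULIN are deubiquitinases that remove the chains that signalling builds, and TNFAIP8 is a TNF-induced protein. TNIP1 had 3152, 3117 and 3268 normalized counts in the rescue, 3167, 2975 and 3080 in the knockout and 3127, 2853 and 2940 in wild type. TNFAIP8 lay between 1138 and 1189 in the rescue, 1225 and 1489 in the knockout and 1028 and 1250 in wild type (rescue against knockout adjusted p = 0.133). CYLD overlapped between all groups from 1115 to 1356. OTULIN had 1674 to 1794 in the rescue, 1757 to 1940 in the knockout and 1543 to 1758 in wild type.

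Among the targets, CD83, a surface protein of activated B cells, had 993.9, 1169 and 974.6 normalized counts in the rescue, 768.9, 744.3 and 716.0 in the knockout and 905.9, 1176 and 805.2 in wild type. The 3 knockout libraries were the lowest of the 9, and rescue and wild type overlapped. The rescue was 1.41 times the knockout (log2 difference 0.30, SE 0.0823, adjusted p = 0.025). That call was lost without KO replicate 1 (0.0575), 2 (0.0592) or 3 (0.0779), rescue replicate 2 (0.095), or batch 1 (0.12) or 3 (0.109). The knockout was 0.772 times wild type (adjusted p = 0.12, called with the block at 0.0309).

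ICAM1, the ligand of the integrin LFA-1 and an NF-kB target in many cells, differed from CD83. It had 1142, 1223 and 1470 normalized counts in the rescue, 1230, 1226 and 1402 in the knockout and 1798, 1463 and 1730 in wild type. Rescue and knockout overlapped, with a ratio of 0.994. The rescue was 0.768 times wild type (log2 difference -0.27, SE 0.0779, adjusted p = 0.0964, 0.0217 with the block) and the knockout 0.773 times wild type (-0.26, adjusted p = 0.0524, 0.0121 with the block), both lower in 3 of 3 batches. Without WT replicate 2 both were called (0.048 and 0.0218), and the second also without rescue replicate 3 (0.0407) and with median centring (0.0477). CFLAR, which encodes the caspase inhibitor c-FLIP, was not called, at 1567 to 1799 in the rescue, 1538 to 1609 in the knockout and 1659 to 1788 in wild type. EBI3, a cytokine subunit first found as induced by Epstein-Barr virus, did not pass the filter and had 0 to 0.7124 in the rescue, 0.8801 to 4.905 in the knockout and 0 to 3.765 in wild type, near the worth of 3 reads (2.58 to 3.40 normalized counts). SQSTM1, the autophagy receptor p62, had 3342, 4537 and 3759 in the rescue, 3327, 4410 and 3548 in the knockout and 3847, 6057 and 3585 in wild type. Its groups overlapped, and replicate 2 was the highest library of each.

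For several members the highest or the lowest library came from the same batch in every group. SQSTM1, NFKBIE, NFKBID, NFKBIA and MAP3K14 were highest in the batch 2 library of each of the 3 groups (5 of 41, 12.2%, beside 13.07% of all genes), and NFKB2, IKBKB, TNIP1, BIRC2, IRAK4 and BCL3 were lowest there (6 of 41, 14.6%, beside 13.08%). BIRC3, BCL3 and TNFAIP3 were highest in batch 3 of each group (3 of 41, 7.3%, beside 5.0%), and REL, TRAF3, OTULIN, RIPK1, IRAK1 and CD83 were lowest there (6 of 41, 14.6%, beside 6.69%). RELB, NFKBIE, MAP3K14 and BIRC3 were lowest in batch 1 of each group (4 of 41, 9.8%, beside 7.04%), and 0 members were highest there, beside 6.93%. NFKBIE, which encodes IkB-epsilon, had 1090, 1404 and 1280 normalized counts in the rescue, 983.8, 1284 and 1140 in the knockout and 999.4, 2293 and 1354 in wild type, so WT replicate 2 was above the other 8 libraries. Its coefficient of variation in wild type, 43.2%, was the largest of any tested member in any group, and its knockout minus wild type difference of -0.26 had a 95% interval of -0.63 to 0.10. BCL3 ranged from 450.5 to 672.9 in the rescue, from 546.8 to 829.8 in the knockout and from 528.6 to 788.2 in wild type.

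**Figure D5:**
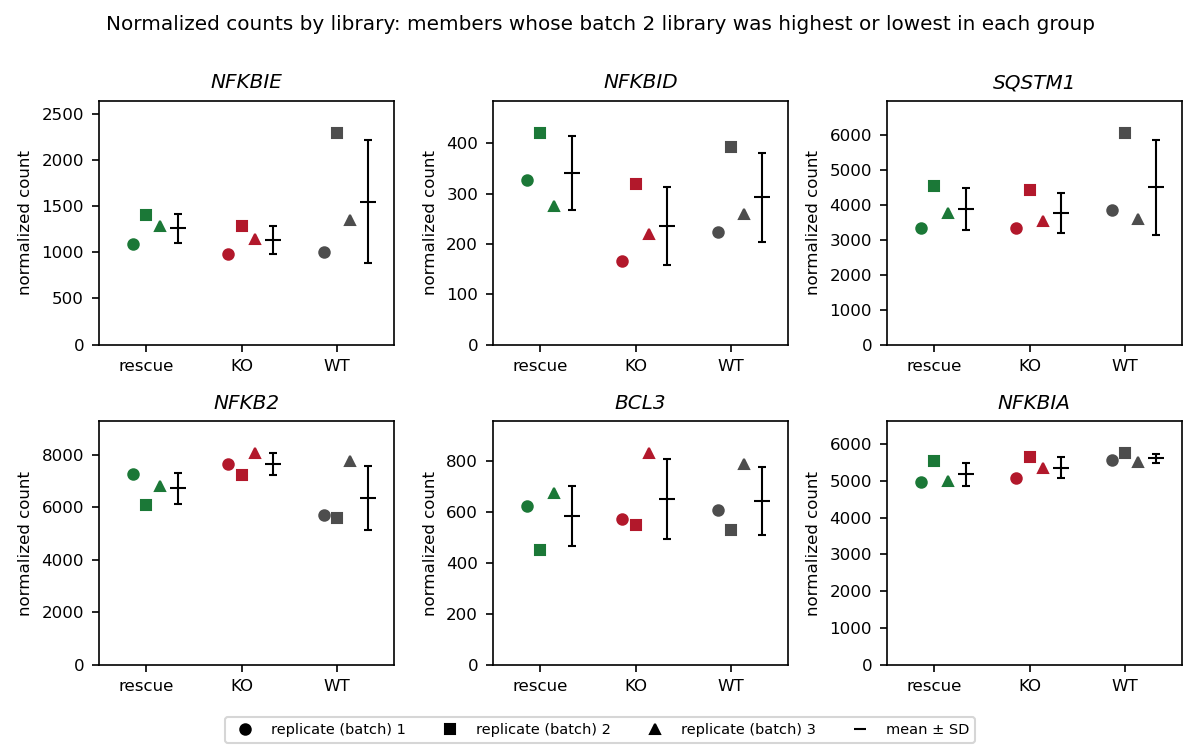
Normalized counts in each library for 6 members whose batch 2 library (square) was the highest or lowest of its group in each of the 3 groups (rescue, KO, WT), with bars for mean ± SD (n = 3). NFKBIE and SQSTM1 are highest in WT replicate 2, at 2293 and 6057.

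Among the 38, 35 and 38 members not called between the knockout and wild type, the rescue and the knockout, and the rescue and wild type, the 95% interval lay within 1.5-fold either way on the deposited scale for 36, 34 and 38. Low genes are compressed on that scale, so the bound is loose for low members such as NFKBIZ, NFKBID, TRAF2 and TLR9.

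Further genes of the pathway were taken from 3 lists drawn from general knowledge. Of 20 tested receptors and ligands, 4 were higher and 4 lower in the rescue than in the knockout (40.0%, beside 22.1% of all genes), 3 higher and 3 lower in the knockout than in wild type (30.0%, beside 12.7%), and 3 higher and 1 lower in the rescue than in wild type (20.0%, beside 4.07%). Median differences were -0.06, 0.03 and -0.01. TNFRSF21, a death receptor, averaged 739.5 ± 14.1 normalized counts in the rescue, 229.0 ± 21.7 in the knockout and 569.0 ± 50.2 in wild type (adjusted p = 2.74e-06 for the rescue against the knockout). TNFRSF13C, the BAFF receptor that feeds the non-canonical arm, averaged 984.6 ± 91.8 in the rescue, 508.4 ± 35.5 in the knockout and 886.3 ± 34.2 in wild type (knockout against wild type adjusted p = 4.36e-04). TNFRSF1B, TNF receptor 2, was the reverse, at 1428 ± 49.7 in the rescue, 2598 ± 44.7 in the knockout and 1855 ± 115 in wild type, with all 3 comparisons called. FAS averaged 176.0 ± 43.5 in the rescue, 441.9 ± 108 in the knockout and 228.6 ± 78.8 in wild type. TLR4 averaged 330.4 ± 56.5 in the rescue, 133.4 ± 22.5 in the knockout and 150.3 ± 33.4 in wild type. TNFRSF13C was thus lower and TNFRSF1B higher in the knockout than in wild type.

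Of 47 tested signal transducers outside the members, 5 were higher and 6 lower in the rescue than in the knockout (23.4%), 3 higher and 2 lower in the knockout than in wild type (10.6%), and 1 higher and 1 lower in the rescue than in wild type (4.26%), shares near the backgrounds given above. Median differences were -0.03, 0.04 and 0.02. PELI1 and PELI2 encode Pellino ubiquitin ligases, which act on IRAK kinases. PELI2 averaged 495.2 ± 97.3 normalized counts in the rescue, 131.1 ± 17.4 in the knockout and 421.9 ± 31.1 in wild type, and PELI1 1698 ± 135 in the rescue, 975.5 ± 60.8 in the knockout and 1335 ± 111 in wild type. Both were called in the rescue against the knockout (adjusted p = 3.35e-05 and 1.22e-04) and in the knockout against wild type (1.51e-04 and 0.00993). PRKCB, the kinase that links the B cell receptor to NF-kB, averaged 202.9 ± 15 in the rescue, 515.1 ± 46.0 in the knockout and 432.2 ± 70.2 in wild type and was called lower in the rescue than in both others. TRAF4 was 1.45 times as high in the rescue as in the knockout (adjusted p = 7.86e-04), and PRKCD 0.778 times (adjusted p = 0.00101).

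Of 46 tested further targets, 11 were higher and 12 lower in the rescue than in the knockout (50.0%, beside 22.1% of all genes), 7 higher and 9 lower in the knockout than in wild type (34.8%, beside 12.7%), and 2 higher and 3 lower in the rescue than in wild type (10.9%, beside 4.07%). Median differences were 0.03, -0.06 and -0.03, so the calls were divided between the directions. MARCKS, a membrane substrate of protein kinase C, averaged 13010 ± 711 normalized counts in the rescue, 6973 ± 662 in the knockout and 9910 ± 959 in wild type, and RHOH, a haematopoietic GTPase, 1625 ± 70.3 in the rescue, 977.2 ± 14.6 in the knockout and 1260 ± 219 in wild type. GCH1, the first enzyme of tetrahydrobiopterin synthesis, was 3.23 times as high in the rescue as in the knockout (adjusted p = 3.75e-04), which averaged 42.70 ± 8.38. In the other direction, TAP1, the peptide transporter of MHC class I loading, averaged 1209 ± 125 in the rescue, 2060 ± 111 in the knockout and 1369 ± 173 in wild type, and the transcription factor MYC 27640 ± 1960 in the rescue, 39720 ± 1810 in the knockout and 35510 ± 1230 in wild type. CD69, an activation marker chosen after its values were seen, averaged 342.7 ± 125 in the rescue, 24.93 ± 9.64 in the knockout and 194.7 ± 116 in wild type. Many of these genes answer to other factors too, and the lists were chosen with earlier results of these data known, so their counts are descriptions.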

How the data were processed

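RNA of 9 Z138 libraries, 3 per group, was measured, per the labels. Per the labels' protocols, either a TruSeq RNA kit or a stranded kit depleting ribosomal RNA was used, with single-end or paired-end reads, and the choice for each library is not stated. The tools DESeq2 1.24.0, FastQC 0.11.9, R 4.3.2, Trimmomatic 0.40 and kallisto 0.46.1, with build GRCh38.p13, are named in the submitters' processing notes. The authors deposited log2 values for 16586 genes. These are named log CPM but are variance-stabilized: all 9 libraries share the lowest value, 8.60. The closed form of that transform was inverted (constant 388) to give normalized counts. Among low values of single-transcript genes 83.5% to 98.0% then lay within 0.05 of a whole multiple of a step of 0.859 to 1.13 normalized counts, the worth of 1 read, against 10% by chance. Dividing by the step gave the estimated depth; floors of 3 reads cover counting error only.

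The deposited values were fitted with limma 3.58.1 (R 4.3.3), keeping genes that reached 1 CPM in 3 or more libraries (5044 left out), with group means and a trended prior variance, and tested on simulated data. Adjusted p-values are Benjamini-Hochberg over those genes. Ratios are of mean normalized counts. Batch equals replicate number in the labels, so same-numbered libraries are paired: their deviations from group means correlated at 0.187 to 0.51, and 9 of 9 libraries correlated best with one of their own number. Calls given without mention of the block come from the fit that ignores this pairing. Alternatives were the replicate block, no or a stricter filter (4 CPM), log2(CPM + 1), median centring, only the 2 groups compared, a constant prior variance, and leaving out each library or batch. Members called in any comparison and the subunits are given by library, and up to 5 called genes with the smallest adjusted p from each further list. The members and lists were chosen with earlier results of these data known. Annotation is GENCODE 29 (GRCh38); levels are not compared between genes. Promoters are from RefSeq, matched by symbol, and windows of 40 of 44 members were used. NFKBIE, TLR7 and RELB had none. Member windows on chromosome 8, where IKBKB lies, were left out. The shares over all symbols and all windows were taken without that step. In bulk RNA, fewer cells of a type and less RNA per cell cannot be told apart. Figures were drawn with matplotlib 3.10.9.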

Additional observations from a re-analysis of the deposited data

How the results depend on the processing

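With the replicate block the members called were 4 higher and 5 lower in the knockout against wild type, 6 higher and 4 lower in the rescue against the knockout, and 2 higher and 2 lower in the rescue against wild type; over all genes 2481, 3601 and 930 were called, against 1470, 2556 and 470 without it. The block added 11 member calls and removed 0. With only the 2 groups compared, 1 member was lower in the knockout than in wild type, 4 were lower in the rescue than in the knockout, and 1 was higher and 0 lower in the rescue than in wild type, where TLR7 had a limma adjusted p of 0.0553 and 5 members had an unadjusted p under 0.05 with all 3 groups fitted. Without the filter 1 member was lower in the knockout than in wild type. With median centring 2 members were higher there, with 643 genes higher in all, against 619 without centring. The member counts with only the 2 groups compared, without the filter and at an unadjusted p have no count over all genes beside them. No result about the members is read from those counts. Leaving out 1 library or 1 batch gave 1 to 3 members higher and 0 to 2 lower in the knockout than in wild type (574 to 1395 genes in all), 2 to 4 higher and 1 to 3 lower in the rescue than in the knockout (993 to 2970), and 0 to 2 higher and 0 to 1 lower in the rescue than in wild type (111 to 427). The fewest genes were called without batch 3 in each comparison. Where 1 batch is left out, 2 libraries per group remain. The causes of the other changes were not tested.

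Of the 12 called differences of members, 4 kept their call under all 19 alternatives: TRAF3IP3 in the knockout against wild type, and TNFAIP3, MYD88 and TLR7 in the rescue against the knockout. No called difference changed sign under these alternatives, and 111 of 2337 alternative values changed sign with neither value called. At an estimated 3.07e+07 reads or more per library, TRAF1, TRAF5 and EBI3 had too few reads to pass the filter.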
